A study of Saccharomyces cerevisiae with 37 samples.

Results

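The transcripts of 9 chaperone genes of the budding yeast Saccharomyces cerevisiae were followed for an hour after copper was added: HSP26 (YBR072W), HSP42 (YDR171W), HSP104 (YLL026W), BTN2 (YGR142W), HSP30 (YCR021C), HSP31 (YDR533C), HSP78 (YDR258C), HSP60 (YLR259C) and HSP10 (YOR020C). They were taken by gene identifier from the deposited count table, 9 of its 6464 genes, and not by any measured value. The series holds 37 libraries of 3' end sequencing (QuantSeq, in which reads start near the poly(A) tail) from 2 haploid MAT A strains of the BY4741 background, as labelled. WT (BMY1051) gave 19 libraries, 3 at 0 min and 2 at each later time, and BMY3661, with a pCUP1-GFA1 25x array, gave 18, 2 at each of 9 times. The array strain carries GFA1, a gene of chitin precursor synthesis, behind the copper-responsive CUP1 promoter in 25 copies, per its name. All cultures were grown in rich medium, washed, kept about 2 h in minimal medium free of copper, and sampled once before copper sulfate (0 min) and 8 times in the hour after it, at 5 min intervals to 30 min and again at 45 min and 60 min. The dose was 500 uM by the treatment note and the series design, while the growth note writes mM. The series has no later libraries without copper, so an effect of copper and one of time since the change of medium cannot be told apart. The strain label is BMY3661 for all array libraries, but the count columns of array replicate 1 are numbered 3661 and those of replicate 2 are numbered 3662, while all WT columns are numbered 1051. The array replicates may therefore be separate isolates, which the labels do not state, and p-values measure the spread between these libraries.

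Molecular chaperones bind proteins that have lost their fold and keep them from clumping, refold them or pull them out of clumps. Small heat shock proteins (Hsp26, Hsp42) and the sorting factor Btn2 collect misfolded proteins in deposits, and the disaggregase Hsp104 extracts them again together with Hsp70. In the mitochondrial matrix Hsp78 is the relative of Hsp104, and Hsp60 with its lid Hsp10 forms the chamber in which imported proteins fold. Transcription of such genes is driven mainly by 2 regulators: Hsf1, which binds heat shock elements, and Msn2 with its relative Msn4, which bind stress response elements.

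Each of the 9 genes is a single uninterrupted coding stretch that no other gene overlaps in the RefSeq annotation of build R64. On the plus strand lie HSP26 at chrII:382030-382674, HSP42 at chrIV:806621-807748, HSP104 at chrXII:88623-91349 and BTN2 at chrVII:772454-773686. On the minus strand lie HSP30 at chrIII:156109-157107, HSP31 at chrIV:1501447-1502160, HSP78 at chrIV:971808-974243, HSP60 at chrXII:663284-665002 and HSP10 at chrXV:370524-370844. The regulatory sequences are shown first, because the 9 genes differ in which of these elements were found in the window searched upstream of them. A window of 300 bases, from 400 to 101 bases before the coding start, was read from the RefSeq genome of build R64 for each gene. A heat shock element was searched as GAANNTTCNNGAA or TTCNNGAANNTTC, which are each other's reverse complement, and a stress response element as AGGGG or its reverse complement CCCCT. Of 6001 genes with such a window, 1.1% held a heat shock element, 23.5% a stress response element and 0.283% both. Of the 9 chaperone genes, 6 held a heat shock element, 5 a stress response element and 3 both (HSP42, HSP104 and HSP78). BTN2, HSP60 and HSP10 had a heat shock element alone, HSP26 and HSP31 a stress response element alone, and HSP30 neither. The genes belong to a family named for heat shock, so their share of heat shock elements is a description. A match is a run of letters, not a measured binding site. Bases outside the window and elements with other spacing or inexact units were not searched. The 6 heat shock elements are printed 5' to 3' along the gene's own strand, in capitals, with 8 bases on each side:
HSP42, chrIV:806370-806403, plus strand: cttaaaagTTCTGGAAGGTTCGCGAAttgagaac
HSP104, chrXII:88313-88346, plus strand: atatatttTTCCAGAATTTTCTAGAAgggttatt
BTN2, chrVII:772102-772135, plus strand: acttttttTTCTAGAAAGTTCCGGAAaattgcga
HSP78, chrIV:974465-974498, minus strand: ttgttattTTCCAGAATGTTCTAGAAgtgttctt
HSP60, chrXII:665192-665220, minus strand: acctcgtgGAATTTTCCAGAAaaccaaat
HSP10, chrXV:370984-371012, minus strand: caatgataGAAATTTCTAGAAtcttgaag
The elements of HSP42, HSP104, BTN2 and HSP78 ran over 18 bases, which is 1 unit more than the 13 bases of HSP60 and HSP10. The whole windows of BTN2 and HSP26 are given because theirs was the pair of rises in WT that passed the test threshold given below. The elements found in their windows also differed. Capitals mark the heat shock element of BTN2 and the only stress response element of HSP26:
BTN2, chrVII:772054-772353, plus strand: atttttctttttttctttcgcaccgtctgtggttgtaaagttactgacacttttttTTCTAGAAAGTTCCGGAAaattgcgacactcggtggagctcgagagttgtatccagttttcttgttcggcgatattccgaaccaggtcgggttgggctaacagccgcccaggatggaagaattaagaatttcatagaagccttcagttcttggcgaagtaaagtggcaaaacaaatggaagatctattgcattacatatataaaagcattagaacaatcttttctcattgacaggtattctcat
HSP26, chrII:381630-381929, plus strand: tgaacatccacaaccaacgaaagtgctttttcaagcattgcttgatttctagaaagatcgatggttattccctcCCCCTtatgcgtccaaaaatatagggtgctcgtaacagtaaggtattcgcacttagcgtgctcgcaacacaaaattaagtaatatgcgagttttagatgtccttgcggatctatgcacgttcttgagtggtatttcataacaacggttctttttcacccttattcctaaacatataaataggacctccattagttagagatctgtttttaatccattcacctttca
No heat shock element with the searched spacing lay in the HSP26 window, and no stress response element lay in that of BTN2.

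**Figure D1:**
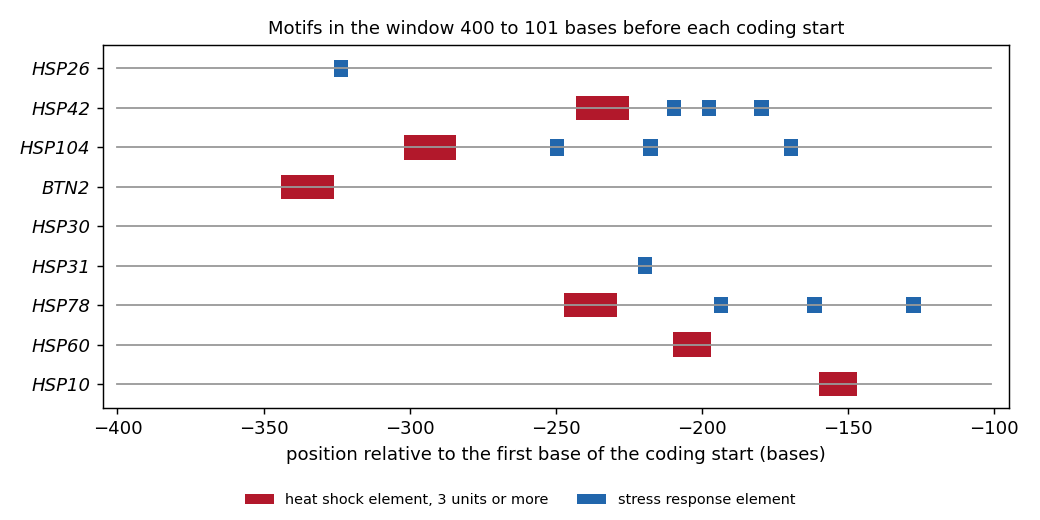
Position of heat shock elements (wide red blocks) and stress response elements (narrow blue blocks) in the window from 400 to 101 bases before the coding start of each of the 9 genes, with distance to the start on the horizontal axis. HSP42, HSP104 and HSP78 show both kinds, BTN2, HSP60 and HSP10 a heat shock element alone, HSP26 and HSP31 1 stress response element each, and HSP30 no block.

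Levels are given in CPM, gene counts scaled to the size of each library with TMM factors. They are compared between libraries and never between genes. A gene was called where its Benjamini-Hochberg adjusted p, over all 4995 tested genes, was under 0.05 in edgeR's quasi-likelihood test, and all adjusted p-values are from that test unless another tool is named. Of the 9 members, 8 passed the filter on low counts, HSP30 being too low. Windows of 2 neighbouring times (5-10, 15-20, 25-30 and 45-60 min) pool 4 libraries a strain. Gene counts per library ran from 305028 to 887971. The lowest was WT 0 min replicate 1, which stood apart: it held 38 counts of HSP10, or 101 CPM, against 993 and 1163 CPM in the other WT 0 min libraries. Its HSP60 was 354 CPM against 1071 and 900 CPM, and its HSP104 was 1007 CPM against 324 and 233 CPM. Some results against WT 0 min are therefore also given without it, and comparisons of later windows with 5-10 min do not compare it. The text gives the early dip of BTN2, the HSP26 log2 fold changes against 0 min and the gene lists only with it. Leaving it out moved the number of all genes called, for example from 79 to 824 in WT at 45-60 against 0 min. All WT windows were set against the same 3 libraries at 0 min, and all array windows against the same 2.

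**Figure D2:**
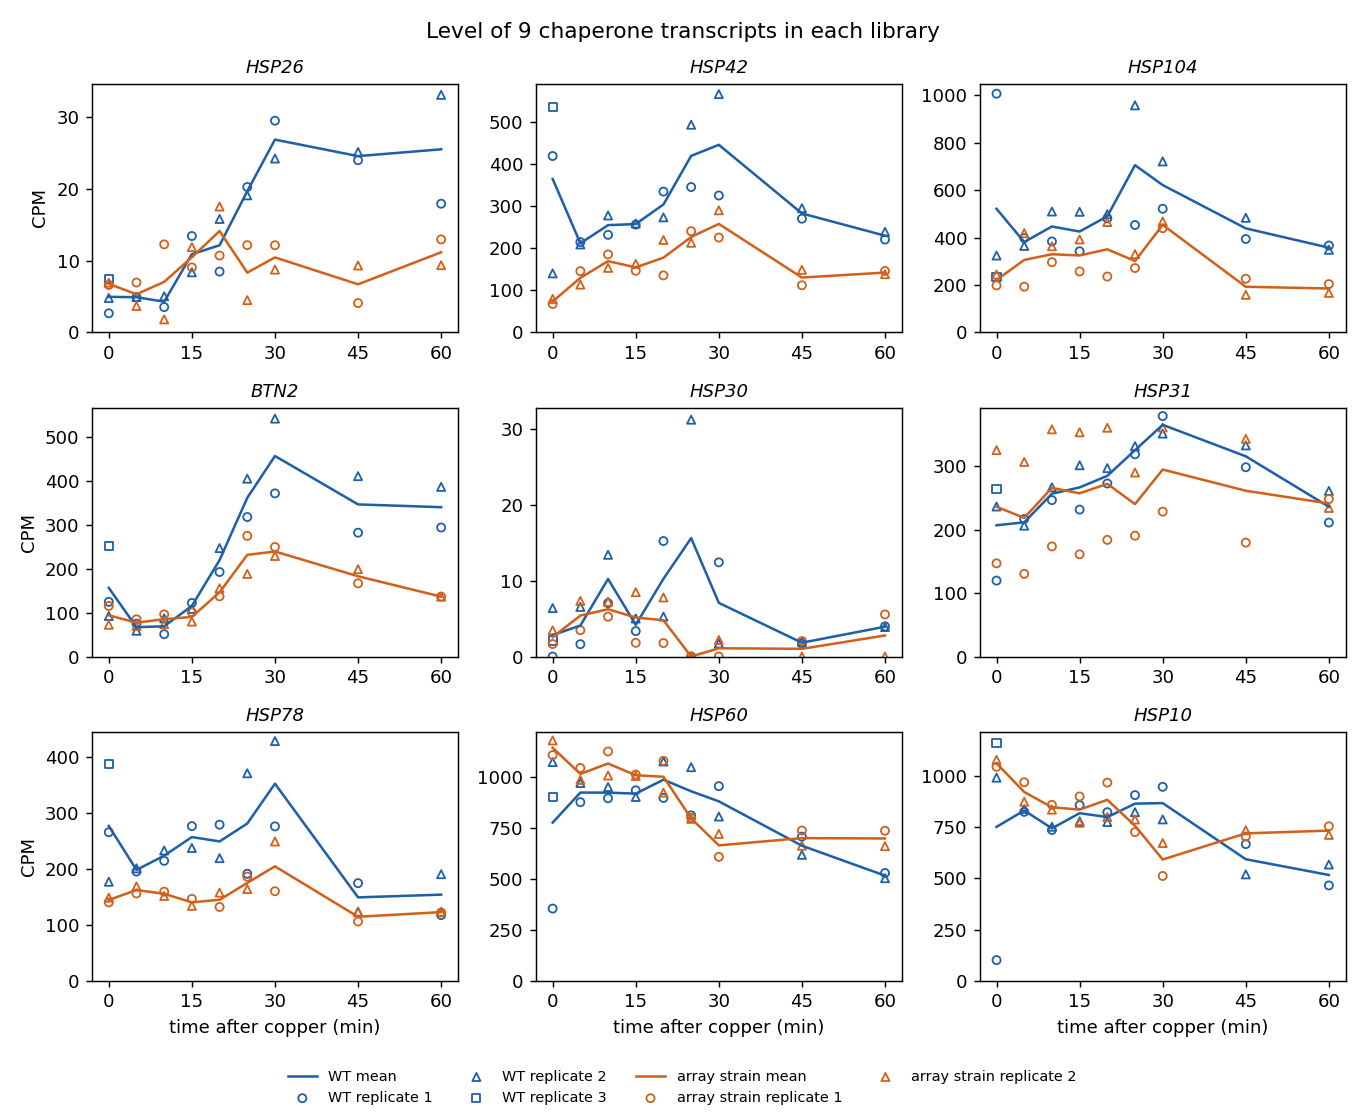
CPM of each of the 9 transcripts (1 panel each, linear axis from 0) against time after copper in minutes, with 1 symbol per library, circles, triangles and squares for replicates 1, 2 and 3, blue for WT and orange for the array strain, and lines through the group means (n = 2 libraries, 3 for WT at 0 min). BTN2 and HSP26 climb in WT, HSP42 of the array strain lies under WT at all 9 times, and the WT 0 min replicate 1 circle lies far below the other 0 min libraries for HSP60 and HSP10.

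BTN2 and HSP26 were the members called higher in WT between times. Others leaned the same way: from 5-10 to 25-30 min 5 of the 8 tested members had an unadjusted p under 0.05. The median log2 fold change of the members was 0.631 there, against 0.006 over all genes. The BTN2 transcript was at its lowest at 5 to 10 min and then climbed to 5.96-fold that level at 25 to 30 min. In WT replicate 1 it stood at 125 CPM at 0 min and at 74.9, 51.0, 122, 193, 318, 372, 283 and 295 CPM at the 8 later times in order. In WT replicate 2 it stood at 92.6 CPM at 0 min and then at 58.9, 87.2, 109, 248, 406, 543, 412 and 387 CPM, and WT 0 min replicate 3 held 253 CPM. Each WT library from 25 min on was above each WT library at 0, 5, 10, 15 and 20 min. Over the whole WT time course 2 of the 8 tested members were called, BTN2 (adjusted p = 1.1e-05) and HSP26 (adjusted p = 0.00134), where 8.75% of all tested genes were.

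Between 5-10 and 25-30 min, BTN2 rose in WT by a log2 fold change of 2.58 (SE 0.25, 95% interval 2.06 to 3.09, adjusted p = 7.23e-07). HSP26 was the other member called in that comparison, in which 0.841% of genes were called and 0.48% were called higher. From 25-30 to 45-60 min BTN2 had a log2 fold change of -0.24 (interval -0.70 to 0.22, adjusted p = 0.549), and at 45-60 min it was still 5.04-fold above 5-10 min (log2 2.33, adjusted p = 1.18e-06). The rises above 5-10 min and the call over the WT time course kept an adjusted p under 0.05 in all 41 fits that left out 1 library or 1 replicate with all its times.

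Against 0 min, BTN2 was 2.53-fold higher in WT at 25-30 min (log2 1.34, SE 0.26, adjusted p = 0.000964) and 2.13-fold higher at 45-60 min (log2 1.09, adjusted p = 0.0209). Without WT 0 min replicate 1 these were log2 1.20 (adjusted p = 0.00234) and 0.95 (adjusted p = 0.0142). At 25-30 min 2 members were called, both higher, where 10.2% of genes were called and 4.28% were called higher. At 45-60 min the same pair was called, with 1.58% of genes called and 1.16% higher. The call at 25-30 min ended without WT replicate 2 (0.82, adjusted p = 0.126). The call at 45-60 min ended when any of the replicate 2 libraries of 0, 45 or 60 min was left out (0.81 to 0.97). It also ended without WT replicate 2 at all its times (0.57) and with the WT libraries alone. Leaving out either array replicate ended it too (1.115), though array libraries are not compared there.

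The early dip of BTN2 in WT was a log2 fold change of -1.24 at 5-10 min against 0 min (SE 0.27, adjusted p = 0.0155), and BTN2 was the 1 member called there, beside 2.4% of genes called and 1.8% called lower. The 4 libraries at 5 and 10 min ran from 51.0 to 87.2 CPM, below the lowest 0 min library at 92.6 CPM. The dip rested on few libraries: without WT 0 min replicate 3 it was -0.65 (adjusted p = 0.134). It also missed the threshold when the 5 min library of replicate 2 (-1.16, adjusted p = 0.109) or either 10 min library (-1.08 and -1.46, adjusted p = 0.0513 and 0.0663) was left out.

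In the array strain BTN2 climbed as well. Its libraries of replicate 1 held 116 CPM at 0 min, then 85.1, 96.3, 101, 137, 275, 250, 167 and 137 CPM. Replicate 2 held 72.6 CPM at 0 min, then 69.7, 74.1, 79.8, 156, 189, 230, 199 and 137 CPM. The 4 libraries at 25 and 30 min were the highest but for 1 at 45 min with 199 CPM, which lay above the 189 CPM of 25 min replicate 2. BTN2 was the only member called over the array time course (adjusted p = 0.029), where 0.621% of genes were called, and this call ended without any 1 of 10 array libraries (adjusted p 0.0559 to 0.0931). From 5-10 to 25-30 min it rose 2.9-fold (log2 1.54, SE 0.25, adjusted p = 0.00137) as the 1 member called, with 7.41% of genes called and 2.46% called higher. That rise kept its call in each of 37 fits without 1 library. BTN2 lost this call without array replicate 1 (log2 1.54) or array replicate 2 (1.55) at all times. From 5-10 to 45-60 min its log2 fold change was 0.96 (interval 0.43 to 1.49, adjusted p = 0.0656), and 0 members were called in that comparison by edgeR, 1 by DESeq2 and 1 by voom, with 3 at an unadjusted p under 0.05 and 1.16% of genes called.

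HSP26 encodes a small heat shock protein and was measured at few counts, 1 to 19 per library. WT replicate 1 held 2.66 CPM at 0 min, then 4.89, 3.52, 13.4, 8.46, 20.2, 29.5, 24.0 and 17.9 CPM, and WT replicate 2 held 4.79, then 4.91, 5.03, 8.37, 15.8, 19.1, 24.2, 25.1 and 33.1 CPM. WT 0 min replicate 3 held 7.40 CPM. All 8 WT libraries from 25 to 60 min lay above all 11 earlier ones. HSP26 rose 4.83-fold in WT from 5-10 to 25-30 min (log2 2.27, SE 0.41, adjusted p = 0.00345) and 5.25-fold from 5-10 to 45-60 min (log2 2.39, adjusted p = 0.000434). Against 0 min it was higher by log2 2.01 at 25-30 min (adjusted p = 0.00243) and by 2.13 at 45-60 min (adjusted p = 0.00533). The call at 45-60 against 0 min ended without WT 60 min replicate 2 (1.86), and no other single library ended a call of these 4 comparisons. Without WT replicate 2 at all its times, all 4 calls and the HSP26 call over the WT time course ended. The log2 fold changes were then 2.49 and 2.26 against 5-10 min, and 2.015 and 1.78 against 0 min, in that order. The call at 25-30 against 5-10 min also ended without WT replicate 1 (2.07).

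HSP26 of the array strain was not called in any comparison between times. Replicate 1 held 6.60 CPM at 0 min, then 6.94, 12.3, 9.05, 10.7, 12.2, 12.1, 4.08 and 12.9 CPM, and replicate 2 held 6.92, then 3.67, 1.81, 11.9, 17.5, 4.49, 8.74, 9.31 and 9.36 CPM. The libraries at 25 to 60 min overlapped those at 0 to 20 min. The log2 fold change from 5-10 to 25-30 min was 0.59 (interval -0.39 to 1.57, adjusted p = 0.46). Each array library held 1 to 9 counts, and a rise within this interval was not excluded.

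HSP42, the small heat shock protein that gathers misfolded proteins during growth, had its highest group means at 25 and 30 min in both strains. WT replicate 1 held 420 CPM at 0 min, then 215, 232, 257, 335, 346, 326, 271 and 221 CPM, and replicate 2 held 140, then 209, 278, 259, 274, 494, 567, 296 and 239 CPM. WT 0 min replicate 3 held 536 CPM, so that the 3 WT libraries at 0 min spanned nearly the full range of WT. HSP42 was not called in WT in any comparison between times: from 5-10 to 25-30 min it had a log2 fold change of 0.90 (interval 0.38 to 1.41, adjusted p = 0.0918). This was called without WT 0 min replicate 1 (0.89, adjusted p = 0.0375) and without all 3 WT 0 min libraries (adjusted p = 0.000967), which do not enter the comparison but add to the shared spread of the gene.

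In the array strain HSP42 started low, at 67.7 and 79.5 CPM at 0 min. Replicate 1 then held 146, 186, 147, 136, 241, 226, 112 and 146 CPM, and replicate 2 held 114, 154, 163, 220, 213, 291, 149 and 138 CPM. Both 0 min libraries lay below all 16 later ones. At 25-30 min HSP42 was 3.29-fold above 0 min (log2 1.72, SE 0.36, adjusted p = 0.0148). BTN2 was also called there, 2.5-fold higher (log2 1.32, adjusted p = 0.0254), so that 2 members were called, both higher, beside 2.14% of genes called and 1.02% called higher. The HSP42 call ended without array 0 min replicate 1 (1.61, adjusted p = 0.265), array 0 min replicate 2 (1.86, adjusted p = 0.107) or array 30 min replicate 2 (1.63, adjusted p = 0.0518). The BTN2 call ended without either array 0 min library or any of 3 at 25 and 30 min (log2 1.05 to 1.71, adjusted p 0.0583 to 0.244). Both calls also ended without array replicate 1 (1.66 for HSP42 and 1.53 for BTN2) or array replicate 2 (1.79 and 1.19) at all times. Without the WT 0 min libraries in the fit, HSP42 and BTN2 were called (adjusted p = 4.97e-05 and 0.000685), among 4 members and 20.5% of genes called in that fit.

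At the other windows of the array strain 0 members were called against 0 min by edgeR, DESeq2 and voom alike. At 5-10 min 1 member had an unadjusted p under 0.05 and 0% of genes were called. At 15-20 min 1 member had such a p, with 0.04% of genes called, and at 45-60 min 3 members had, with 0.18% of genes called. In WT at 15-20 min 0 members were called by any of these tools, 1 had an unadjusted p under 0.05, and 12.5% of genes were called.

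HSP104, the disaggregase, was not called between any times with all libraries. WT replicate 1 held 1007 CPM at 0 min, then 397, 384, 342, 481, 453, 522, 394 and 366 CPM. WT replicate 2 held 324, then 365, 510, 509, 499, 958, 721, 483 and 348 CPM, and WT 0 min replicate 3 held 233 CPM. The highest WT library of HSP104 was thus WT 0 min replicate 1, and next came the replicate 2 libraries of 25 and 30 min. At 25-30 min against 0 min the log2 fold change was 0.37 (interval -0.36 to 1.1, adjusted p = 0.569). Without WT 0 min replicate 1 it was 1.26 (adjusted p = 0.00401), a call that a single library decided; 3 members (HSP26, HSP104 and BTN2) and 15% of genes were called in that fit. In the array strain HSP104 held 198 and 244 CPM at 0 min, 271, 330, 439 and 468 CPM at 25 and 30 min and 158 to 226 CPM at 45 and 60 min.

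**Figure D3:**
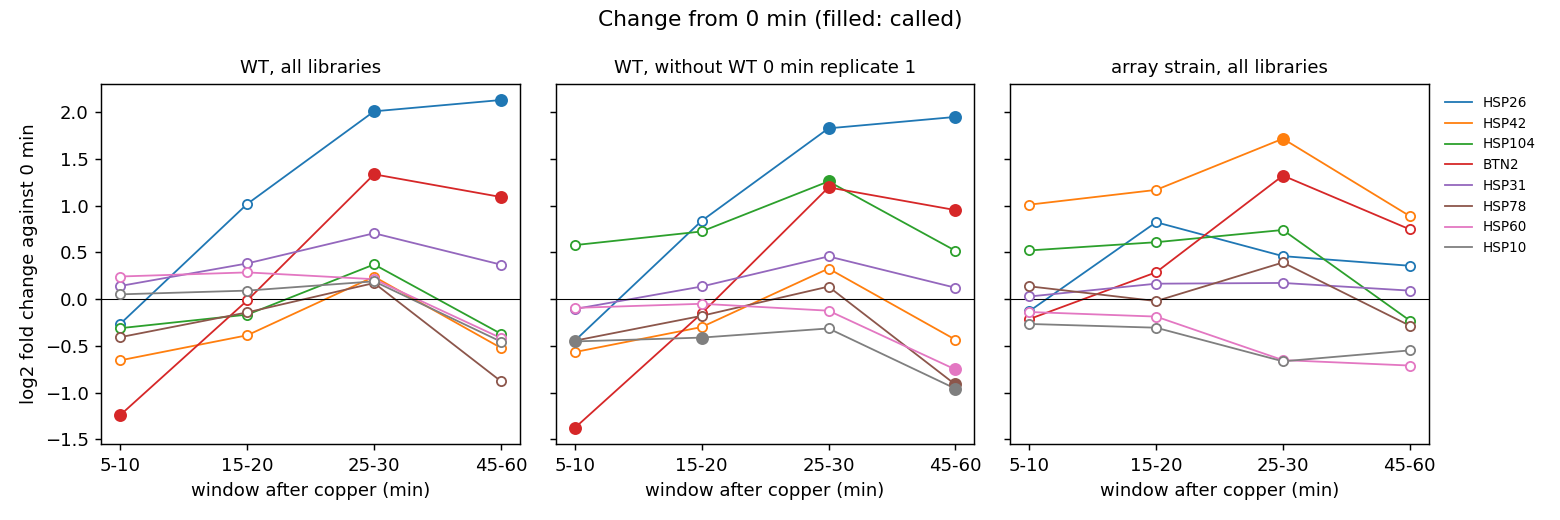
Log2 fold change against 0 min of the 8 tested members in 4 windows after copper, for WT with all libraries, WT without WT 0 min replicate 1, and the array strain; filled circles are called at an adjusted p under 0.05. HSP26 and BTN2 are filled at 25-30 and 45-60 min in both WT panels, while HSP104, HSP78, HSP60 and HSP10 gain filled circles in WT once WT 0 min replicate 1 is left out.

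Among the mitochondrial chaperones the direction was downward late in WT. HSP78 in WT replicate 1 stood at 266 CPM at 0 min, then at 196, 215, 277, 279, 192, 276, 175 and 118 CPM. Replicate 2 stood at 177, then at 201, 233, 238, 219, 371, 429, 124 and 191 CPM, and WT 0 min replicate 3 at 388 CPM. The 4 libraries at 45 and 60 min, at 118 to 191 CPM, lay below the 4 at 25 and 30 min. HSP78 fell from 25-30 to 45-60 min by 1.05 on the log2 scale (SE 0.22, adjusted p = 0.00197), and this call stood in each of 37 fits without 1 library. It ended without WT replicate 2 at all times (-0.68, adjusted p = 0.212). HSP60 was called lower in the same comparison, so 2 members were called, where 10.4% of genes were called and 4.1% were called lower.

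HSP60 in WT replicate 1 held 354 CPM at 0 min, then 875, 894, 932, 895, 810, 953, 706 and 528 CPM. WT replicate 2 held 1071, then 968, 949, 900, 1074, 1046, 804, 617 and 502 CPM, and WT 0 min replicate 3 held 900 CPM. The 4 libraries at 45 and 60 min were below all 12 libraries of 5 to 30 min. HSP60 fell from 5-10 to 45-60 min by 0.66 on the log2 scale (SE 0.20, adjusted p = 0.0388). It was the third member called in that comparison beside BTN2 and HSP26, with 8.61% of genes called. From 25-30 to 45-60 min its log2 fold change was -0.63 (adjusted p = 0.0424). With all libraries both HSP60 calls were borderline. The first ended without any 1 of the 8 WT libraries compared (-0.73 to -0.62, adjusted p 0.0585 to 0.167). The second ended in 33 of 37 fits without 1 library (-0.69 to -0.53, adjusted p 0.0502 to 0.196). Leaving out WT 0 min replicate 1, which is in neither comparison but widens the spread of HSP60, gave the same -0.66 and -0.63 with adjusted p = 6.54e-05 and 6.84e-05.

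HSP10, the partner of HSP60, ran close to it. WT replicate 1 held 101 CPM at 0 min, then 826, 737, 859, 824, 908, 948, 668 and 466 CPM. WT replicate 2 held 993, then 839, 753, 780, 776, 824, 789, 520 and 568 CPM, and WT 0 min replicate 3 held 1163 CPM. The libraries at 45 and 60 min were below all libraries of 5 to 30 min, as for HSP60. With all libraries HSP10 was not called in any comparison: from 5-10 to 45-60 min its log2 fold change was -0.51 (interval -1.20 to 0.18, adjusted p = 0.365). Without WT 0 min replicate 1 it was called at the same -0.51 (adjusted p = 0.00161). Against the other 0 min libraries it was then lower by 0.45 at 5-10 min (log2 fold change -0.45, adjusted p = 0.042), by 0.41 at 15-20 min (-0.41, adjusted p = 0.0305) and by 0.96 at 45-60 min (-0.96, adjusted p = 1.85e-05). In that fit 5 members were called at 45-60 against 0 min, with HSP60 at -0.75 (adjusted p = 0.000237), HSP78 at -0.91 (adjusted p = 0.0131) and HSP26 and BTN2 higher, beside 16.6% of all genes.

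In the array strain both libraries of HSP60 and of HSP10 at 0 min lay above all 8 libraries from 25 to 60 min. HSP60 held 1105 and 1177 CPM at 0 min, 607 to 798 CPM at 25 and 30 min and 659 to 736 CPM at 45 and 60 min. HSP10 held 1046 and 1080 CPM at 0 min, 512 to 788 CPM at 25 and 30 min and 705 to 755 CPM at 45 and 60 min. Neither was called with all libraries: at 25-30 against 0 min HSP60 had log2 -0.65 (adjusted p = 0.117) and HSP10 -0.67 (adjusted p = 0.326). Without the WT 0 min libraries in the fit, these were -0.65 (adjusted p = 0.000775) and -0.66 (adjusted p = 0.000884). HSP78 of the array strain held 140 and 149 CPM at 0 min and 106 to 249 CPM later. From 25-30 to 45-60 min in the array strain 0 members were called by edgeR, DESeq2 or voom, 4 had an unadjusted p under 0.05, and 0.601% of genes were called.

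HSP31 encodes a glyoxalase and chaperone of the DJ-1 family and was not called in any of the 24 comparisons fitted without a replicate block. With the block it was called in WT at 25-30 against 0 min (log2 0.94, adjusted p = 0.00549), where 15.1% of genes were called. It ran from 120 to 379 CPM in WT, with the highest libraries at 30 min (379 and 351 CPM), and from 130 to 361 CPM in the array strain. The array replicates stood apart from each other: at 0 to 45 min replicate 1 held 130 to 228 CPM and replicate 2 held 290 to 361 CPM. At 60 min they held 248 and 234 CPM. Its relatives HSP32, HSP33 and SNO4 had 0, 1 and 0 counts over all libraries. Reads that fit several places were not counted, so any reads shared between these genes would be missing from HSP31. How alike their sequences are was not measured.

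HSP30, a membrane protein that restrains the plasma membrane proton pump, was near the detection floor of 3 counts per library. It had 73 counts over the 19 WT libraries and 32 over the 18 array libraries, and 12 WT and 14 array libraries held 3 counts or fewer. The highest WT library, 25 min replicate 2, had 18 counts (31.2 CPM), while WT 25 min replicate 1 had 0. No change of HSP30 could be tested at this depth.

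The strains differed most steadily in HSP42. At 0 min the array strain held 67.7 and 79.5 CPM against 420, 140 and 536 CPM in WT, a log2 fold change of -2.31 (SE 0.37, interval -3.08 to -1.55, adjusted p = 0.000271). HSP42 was the 1 member called at 0 min, where 3.44% of genes were called and 1.86% were called lower. The call stood in each of 37 fits without 1 library, and without WT 0 min replicate 1 the difference was -2.23 (adjusted p = 0.000365). The call ended without array replicate 1 (-2.22) or array replicate 2 (-2.46) at all times. At all 9 times both array libraries of HSP42 lay below every WT library. HSP78 was below in this way at 8 times, all but 60 min, HSP104 and BTN2 at 6 and HSP26 at 4 (25 to 60 min). HSP60 and HSP10 lay the other way at several times: both array libraries were above every WT library at 5 times for HSP60 (0, 5, 10, 15 and 60 min) and at 4 for HSP10 (5, 10, 45 and 60 min). At 25 and 30 min both genes were below. How many of all genes were separated in this way was not counted, so these numbers of times only describe the members.

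Over the mean of the 8 times from 5 to 60 min, 4 of the 8 tested members were called and all 4 were lower in the array strain; 23.9% of genes were called and 11.9% were called lower. HSP42 ran from 209 to 567 CPM (median 272) in the 16 WT libraries and from 112 to 291 CPM (median 151) in the 16 array libraries, a log2 fold change of -0.79 (SE 0.13, adjusted p = 5.49e-05). HSP78 had a median of 217 CPM in WT (118 to 429) and 154 CPM in the array strain (106 to 249), with a log2 fold change of -0.58 (adjusted p = 0.000339). HSP104 had medians of 467 CPM (342 to 958) and 284 CPM (158 to 468), with -0.68 (adjusted p = 0.00338). BTN2 had medians of 265 CPM (51.0 to 543) and 137 CPM (69.7 to 275), with -0.53 (adjusted p = 0.00229). The ranges overlapped for all 4 genes because levels also moved with time. HSP26 had -0.57 and missed the threshold (adjusted p = 0.0548), but passed without WT 0 min replicate 1 (adjusted p = 0.0404). HSP31 (-0.13, interval -0.44 to 0.19), HSP60 (0.05, -0.16 to 0.25) and HSP10 (0.07, -0.27 to 0.41) were not called. None of the 4 calls ended in the 37 fits without 1 library. With 1 replicate left out at all its times the HSP42 call stood in all 4 fits. The HSP104 call ended without WT replicate 2 (-0.49, adjusted p = 0.154) or array replicate 1 (-0.56, adjusted p = 0.186). The HSP78 call ended without array replicate 1 (-0.54, adjusted p = 0.086), and that of BTN2 ended in 3 of these fits (-0.62 to -0.36, adjusted p 0.058 to 0.111).

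**Figure D4:**
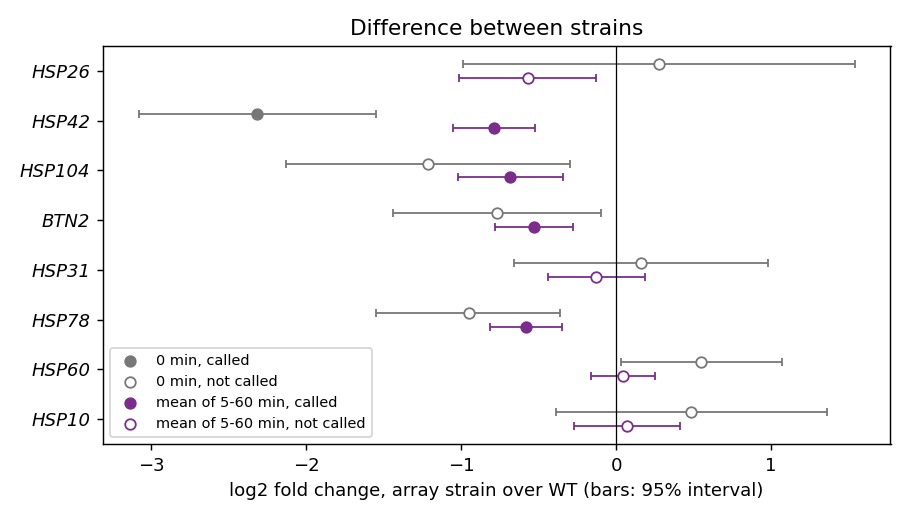
Log2 fold change of the array strain over WT with its 95% interval for the 8 tested members, at 0 min (grey, 2 against 3 libraries) and as the mean of 5 to 60 min (purple, 16 against 16 libraries); filled circles are called. HSP42 is lowest at 0 min at -2.31, and HSP42, HSP104, BTN2 and HSP78 are filled below 0 in the mean of 5 to 60 min.

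The strains were also set side by side at the later windows. At 25-30 min 4 members were lower in the array strain (HSP26 by log2 -1.27, HSP42 -0.84, BTN2 -0.79 and HSP78 -0.73, adjusted p 0.0253 to 0.0312), beside 11.5% of genes called and 5.79% called lower. At 45-60 min 2 were lower (BTN2 -1.12 with adjusted p = 0.005 and HSP26 -1.50 with adjusted p = 0.0228), beside 2.76% called and 1.44% called lower. Most of these calls were close to the threshold. At 25-30 min each of the 4 ended without any of 5 single libraries (adjusted p 0.068 to 0.293), and HSP78 then had as little as -0.45, without WT 25 min replicate 2. At 45-60 min the HSP26 call ended without any of 6 libraries (adjusted p 0.0529 to 0.19). The BTN2 call there ended without WT 45 min replicate 2, WT 60 min replicate 2 or array 45 min replicate 1 (-1.03 to -0.96, adjusted p 0.0534 to 0.0559). With 1 replicate left out at all its times, the HSP26 call at 25-30 min ended in all 4 fits (-1.82 to -0.91). Those of HSP42, BTN2 and HSP78 ended in 3 of the 4, with as little as -0.47, -0.54 and -0.28. At 45-60 min the calls of HSP26 (-1.755 to -1.229) and BTN2 (-1.19 to -0.86) ended in 3 of the 4. Without WT 0 min replicate 1 in the fit 7 members were called at 25-30 min, all lower, beside 22.1% of genes, and 5 at 45-60 min, beside 10.2%. In the latter fit HSP10 was the 1 member higher in the array strain (0.39, adjusted p = 0.0187).

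Whether the response itself differed between strains was tested as an interaction. From 5-10 to 25-30 min the log2 fold change of BTN2 in the array strain minus that in WT was -1.04 (interval -1.77 to -0.31, adjusted p = 0.345), and for HSP26 it was -1.68 (interval -3.03 to -0.34, adjusted p = 0.396). From 5-10 to 45-60 min the differences were -1.37 for BTN2 (interval -2.11 to -0.63) and -1.91 for HSP26 (interval -3.25 to -0.57), each with an adjusted p of 1. In all 4 interaction tests 0 members and 0% of genes were called by edgeR, and 0 members by DESeq2 and voom. An unadjusted p under 0.05 was seen for 2 members in each of these 2 comparisons, for 1 in the mean of 5 to 60 min against 0 min (HSP42, 1.53, adjusted p = 0.423) and for 0 at any of the times. The WT 0 min libraries do not enter the interactions of 25-30 and 45-60 against 5-10 min. In the fit without them the adjusted p for BTN2 was 0.0524 and 0.0561, just over the threshold, and for HSP26 0.134 and 0.572. That fit called 0 members, beside 1.37% and 0.0202% of genes. The smaller log2 fold changes of BTN2 and HSP26 in the array strain are thus not shown to differ from those of WT. Without WT 0 min replicate 1, 0.462% of genes and 0 members were called from 5-10 to 25-30 min. Without WT 0 min replicate 2, 4.43% of genes and 1 member, HSP42 (1.92, adjusted p = 0.00171), were called for the mean of 5 to 60 min against 0 min.

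The strain difference does not stand alone. The summed level of 7 a-cell genes was 178 to 493 CPM (median 351) in WT and 1380 to 2870 CPM (median 2460) in the array strain, and 6 genes that haploid cells express summed to 108 to 191 CPM in WT and 630 to 853 CPM in the array strain. The 4 alpha-cell genes summed to 8.46 to 40.5 CPM and 17.5 to 48.8 CPM. Both strains are labelled haploid MAT A, so the low a-cell and haploid levels of WT go against its label. GFA1, the gene in the array, held 32.8 to 343 CPM in WT and 1798 to 21390 CPM in the array strain. Each of these features moves with the strain, and they cannot be told apart in the strain differences of the 9 genes.

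Other genes of the same pathways were counted from lists for comparison. Of 16 further chaperone genes with known Hsf1 control, 1 was higher and 2 were lower in WT at 25-30 against 0 min. That comparison had 10.2% of all genes called and 4.28% called higher. The median log2 fold change of the list was -0.19 against 0.001 over all genes. The gene that was higher was SSA4, a stress-induced Hsp70 (log2 1.14, adjusted p = 0.0168), and HSC82 (-0.52, adjusted p = 0.00949) and SSE1 (-0.57, adjusted p = 0.023) were lower. At 15-20 min, where 12.5% of all genes were called, 6 of the 16 were lower and 0 higher, with a median of -0.53. They were led by HSP82 (-1.01, adjusted p = 0.00357), the stress-induced Hsp90. BTN2 and SSA4 were thus called higher at 25-30 min while the median of this list was below 0. From 5-10 to 45-60 min SSA4 rose by 2.98 (adjusted p = 5.49e-07) and HSC82 had -0.56 (adjusted p = 0.00435). FES1, an exchange factor of Hsp70, had 0.73 (adjusted p = 0.00946). In all 2 of the list were higher and 3 lower there, beside 8.61% of all genes called.

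Of 14 tested genes of the general stress list, most are known targets of Msn2 and Msn4. In WT at 25-30 against 0 min, where 4.28% of all genes were called higher, 9 of the 14 were higher and 0 lower (median 1.59). They were led by CTT1, the cytosolic catalase (2.17, adjusted p = 2.02e-06), ALD3 (2.35, adjusted p = 5.74e-05) and PGM2 (1.88, adjusted p = 0.000105). From 25-30 to 45-60 min 9 of the 14 fell again (median -1.68), where 4.1% of all genes were called lower. At that time BTN2 and HSP26 had log2 fold changes of -0.24 and 0.12. In the array strain against WT over 5 to 60 min 13 of the 14 were lower, where 11.9% of all genes were called lower. Their list had a median of -1.37, against 0.003 over all genes, and CTT1 was among those lower (-2.41, adjusted p = 1.95e-14). The 8 partners of Hsp104 in disaggregation, all but SSE2 also on the Hsf1 list, had 2 higher and 1 lower in that comparison. With 23.9% of all genes called there, these counts are not read as a result about the partners. The partner that was lower was SSE2, an exchange factor of Hsp70 (-0.77, adjusted p = 1.01e-07). Of 14 tested genes of mitochondrial folding and proteolysis 0 were called in either direction in WT at 25-30 or 45-60 against 0 min. The shares of all genes called there were 10.2% and 1.58%. Of the 14 genes 2 were lower in the array strain over 5 to 60 min, PHB2 (-0.33, adjusted p = 0.000534) and MDJ1 (-0.31, adjusted p = 0.0184). This was beside 11.9% of all genes called lower. CUR1, the relative of BTN2, was lower in WT at 45-60 against 0 min (-1.21, adjusted p = 0.0461), where BTN2 was higher. MRH1, a membrane protein related to HSP30, was lower in the array strain over 5 to 60 min (-0.52, adjusted p = 0.0325).

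The shapes of the profiles over the 18 strain and time groups were compared by Pearson's r of mean log2 CPM, as a description over groups that share strains and libraries. Among pairs of members the highest were HSP42 with HSP104 (r = 0.891), HSP60 with HSP10 (r = 0.883), HSP104 with HSP78 (r = 0.846) and HSP26 with BTN2 (r = 0.827). The lowest was BTN2 with HSP60 (r = -0.554). Of 4378 genes compared, those most like each member were SSA3 and GSC2 for HSP26 (r = 0.797 and 0.787), SSE2 and UBP15 for HSP42 (0.955 and 0.95), RGI1 and GSY2 for HSP104 (0.946 and 0.926) and AIM44 and SSA4 for BTN2 (0.915 and 0.879). For HSP31 they were ASH1 and APE1 (0.913 and 0.882), for HSP78 FMP10 and RGI1 (0.924 and 0.889), for HSP60 SSA1 and PGI1 (0.933 and 0.931) and for HSP10 TRX2 and RPL9B (0.941 and 0.926). Over the 16 groups without 0 min the r of HSP42 with SSE2 was 0.976, of HSP60 with SSA1 0.924 and of BTN2 with SSA4 0.873.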

How the data were processed

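The deposited values are raw counts of reads per gene from QuantSeq 3' libraries, 1 column per library (37 columns), with no other sample columns (0). Per the submitters' processing notes, FastQC 0.11.9, STAR 2.7.10a, SAMtools 1.10, HTSeq 2.0.2 and build R64 were used; the strand setting and annotation release are not given in the sources used here. HTSeq's summary entries were left out of library sizes: 36.6% to 54.6% of listed reads lay in genes and 34.8% to 50.6% in no feature, so counts depend on how far the annotation reaches toward the 3' end. Counting error only is covered by the floor of 3 counts, since PCR copies could not be told apart.

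From these counts, edgeR 4.0.16 (R 4.3.3) fitted all 18 strain and time groups together, with 19 residual degrees of freedom. Genes passed filterByExpr with its minimum count at 10, scaling was by TMM, tests were glmQLFTest, and calls were made under 0.05 after Benjamini-Hochberg adjustment over 4995 genes. A window is the equal mean of its 2 times. Alternatives were DESeq2 1.42.0, voom in limma 3.58.1, DESeq2 size factors, 2 other filters, GFA1 left out, a replicate block, 1 strain alone, and each library or replicate left out. The steps were tested on simulated counts.

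The members, lists and comparisons were chosen with earlier results of these data known. Comparisons of 25-30 with 5-10 min, of 45-60 with 25-30 min and of strains at 25-30 and 45-60 min, and the fit without WT 0 min libraries, were added after the values were seen. All 9 members are named, with up to 3 called genes per list and comparison (smallest p), and the 2 most similar genes per member among genes of at least 20 CPM. Library pairs within groups all differed by more than counting noise. Sequences are from the RefSeq genome of build R64; the window stops 101 bases before the coding start.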

Additional observations from a re-analysis of the deposited data

How the results depend on the processing

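Values are numbers of members called. Under no alternative did a named call change direction. With a mean of at least 20 CPM, which removes HSP26, 1 member was called in WT over the time course, at 25-30 and 45-60 against 0 min and at 25-30 against 5-10 min, 1 in the array strain at 45-60 against 5-10 min, and between strains 2 at 0 min and 1 at 45-60 min. Over the alternatives other than the leave-out fits, 119 to 599, 216 to 752, 14 to 102 and 11 to 154 of all genes were called in WT, in that order. In the array strain they were 55 to 576, and between strains 156 to 432 and 123 to 604. With the libraries of 1 strain only, WT had 0 at 5-10 and 1 at 45-60 against 0 min and 1 at 45-60 against 25-30 min, beside 0, 14 and 271 of all genes. The array strain alone had 6 over the time course, 1, 1, 6 and 4 at the windows in order against 0 min, 3 at 45-60 and 4 at 25-30 against 5-10 min, and 4 at 45-60 against 25-30 min. The calls over all genes moved with them, to 1150, 10, 140, 1285, 154, 576, 1548 and 787 in that order, from 31, 0, 2, 107, 9, 58, 370 and 30 with both strains in the fit. Without all WT 0 min libraries (added after the data were seen) the array strain had 4 over the time course, 1, 4 and 2 at 15-20, 25-30 and 45-60 against 0 min, 2 and 4 at 45-60 and 25-30 against 5-10 min and 4 at 45-60 against 25-30 min. The shares of all genes were 13.5%, 1.49%, 20.5%, 0.927%, 4.88%, 27% and 9.35% in that order. WT then had 5 at 45-60 against 25-30 min (22% of genes), and the strains differed in 7 at 25-30 (23.9%) and 5 at 45-60 min (12.2%). DESeq2 and voom gave 1 each for the array strain at 45-60 against 5-10 min, where DESeq2 called 1.3% of genes. Between strains voom gave 2 at 25-30 min and DESeq2 1 at 45-60 min, where DESeq2 called 2.98% of genes. Shares of all genes for voom are not given here. The cause of these shifts was not tested.

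The labels do not say that a replicate number marks 1 culture over time, and whether the array numbers mark isolates was not settled. The difference of replicate 1 and 2 correlated between times at a median r of 0.086 (WT) and 0.067 (array), across genes, and r passed 0.1 in 17 and 11 of 36 pairs of times. With the replicate block 0 members were called in WT at 5-10 against 0 min (7.15% of genes), 1 in the array strain at 45-60 against 5-10 min (BTN2, log2 0.97, adjusted p = 0.00429, 2.36%), and between strains 2 at 0 min (HSP104 added, -1.61, adjusted p = 0.021, 8.65%) and 4 at 45-60 min (4.84%). WT had 3 over the time course (HSP78 added, adjusted p = 0.036, 12%), 3 at 25-30 against 0 min (HSP31 added, 15.1%), 3 at 25-30 against 5-10 min (HSP42 added, 0.89, adjusted p = 0.0406, 1.78%) and 3 at 45-60 against 25-30 min (HSP42 added, -0.76, adjusted p = 0.0269, 13.9%). Between strains 5 were called in the mean of 5-60 min (HSP26 added, -0.57, adjusted p = 0.0499, 28.6%) and 5 at 25-30 min (HSP104 added, -0.83, adjusted p = 0.0439, 16.9%).

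Without 1 library or 1 replicate (41 fits) the numbers called in WT were 1 to 6 over the time course, 0 to 2 at 5-10, 0 to 1 at 15-20, 0 to 4 at 25-30 and 0 to 5 at 45-60 against 0 min, 1 to 4 at 45-60 and 1 to 3 at 25-30 against 5-10 min, and 0 to 5 at 45-60 against 25-30 min. In the array strain they were 0 to 3 over the time course, 0 to 4 at 25-30 and 0 to 2 at 45-60 against 0 min, 0 to 2 at 45-60 and 0 to 4 at 25-30 against 5-10 min, and 0 to 2 at 45-60 against 25-30 min. Between strains they were 0 to 5 at 0 min, 1 to 5 in the mean of 5-60 min, 0 to 7 at 25-30 and 0 to 5 at 45-60 min, and 0 to 1 for the interaction of the mean of 5-60 min. The calls over all genes also ranged widely in these fits, for example from 61 to 912 in the WT time course (437 with all libraries), 0 to 968 in the array strain at 25-30 against 0 min (107), and 25 to 882 between strains at 0 min (172). The ranges of members called are therefore not read as particular to the members. HSP26 and HSP30 are limited by depth.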
